A study of Rattus norvegicus with 4 samples.

Results

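Mitochondrial fatty acid oxidation and its control by PPAR receptors were followed through 43 genes, listed by name and read from the rows of the expression table that carry their symbols. Of the 43, 41 had a row among the 16290 genes of the table and 39 reached the level needed for testing, among 12838 genes tested. Cd36 and Echs1 were not analysed here, and Acot1 and Ucp3 were too low to test. RNA was sequenced from neonatal rat cardiomyocytes, heart muscle cells of postnatal day 3 kept in medium with horse serum, glutamine and pyruvate. Adenovirus, used to carry a gene into cells that take up DNA poorly, delivered either mock (2 libraries, Mock 1 and Mock 2) or Pdk3 (2 libraries, Pdk3 1 and Pdk3 2), and both groups shared cell type, stage and culture in the labels. Pdk3 encodes a pyruvate dehydrogenase kinase, which inhibits the complex that turns pyruvate into acetyl-CoA. The labels give neither the vector's promoter nor the share of cells reached, and they do not say whether the libraries of a group came from separate cultures, so the p-values speak of the scatter among these libraries alone, which may be technical.

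In heart muscle, long-chain fatty acids are taken up, bound, activated to acyl-CoA, carried into mitochondria as carnitine esters and shortened by repeated rounds of beta-oxidation, each of which yields acetyl-CoA and reduced carriers for the respiratory chain. Malonyl-CoA blocks the carnitine step. PPAR nuclear receptors, which bind DNA together with an RXR partner and are stimulated by fatty acids, switch on many of these genes with the help of PGC-1 coactivators, and the heart raises this programme after birth as it moves from glucose to fat as its main fuel.

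Normalised read counts summed to between 4448199 and 4476649 per library, a difference of 0.640%, and the highest value of any gene was 8169. Pdk3 itself stood at 396 and 411 in mock and at 1218 and 1177 after its delivery (log2 fold change 1.57 ± 0.03, SE; limma adjusted p = 1.47e-06), a sum of vector and endogenous reads. Cardiomyocyte markers were expressed, for example 3865, 3806, 4127 and 4040 for the myosin gene Myh6 in Mock 1, Mock 2, Pdk3 1 and Pdk3 2, the order used throughout. Markers of other cells were expressed too, for example 2973, 2964, 3027 and 2932 for the fibroblast collagen gene Col1a1. Libraries of 1 group differed by less than counting noise alone would give, with a mean chi-square per gene of 0.553 between the mock and 0.547 between the Pdk3 libraries, against 3.64 to 3.93 across groups (10583 genes with a mean of at least 50). Because this makes standard errors small, each call was set beside a second p that cannot go below counting noise, given here as the adjusted p at the counting floor.

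Changes among fatty acid oxidation genes were small in the deposited values, with falls in 6 of the 9 groups of members and rises in 2. Of the 39 members tested, 11 fell and 3 rose in the Pdk3 libraries (limma, Benjamini-Hochberg adjusted p under 0.05 over all genes tested). The members that fell were spread over carnitine entry (Cpt1a, Cpt1b, Cpt2, Slc25a20), the beta-oxidation spiral (Acadvl, Acaa2), malonyl-CoA control (Mlycd, Acacb), the fatty acid transporter Slc27a1, the thioesterase Acot2 and the receptor Rxra. Those that rose were the acyl-CoA synthetases Acsl3 and Acsl4 and the coactivator Ppargc1a. Acacb fell by 5.26% and Slc27a1 by 19.3%, the ends of the range, and rises ran from 11.1% to 22.8%.

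Over all genes tested, 11.3% were lower and 11.7% higher, 22.9% in either direction, against 28.2% lower and 35.9% in either direction among the members. The members, and the neighbouring lists below, were chosen with earlier results of these data known, so their shares are not independent of those results. The median log2 fold change of the 39 members was -0.06 and that of all genes tested -0.01. At the counting floor 8 members fell and 2 rose, where 7.45% of all genes were lower and 8.39% higher (15.8% in either direction). The calls of Slc25a20, Acacb, Rxra and Ppargc1a ended there. With the 69 ribosomal protein genes held level instead, 26 members were lower and 2 higher, among them 5 of 5 carnitine entry and 7 of 8 spiral genes lower. As deposited, the ribosomal protein genes had a median log2 fold change of 0.08, so holding them level lowers every gene by a similar amount. It moved the median of all genes tested from -0.01 to -0.09. That scaling gave 3586 genes lower and 928 higher overall (27.9% and 7.23%, 35.2% together), against 1449 and 1496 as deposited. With any 1 library left out, limma called 0 members, with 13 or 14 at an unadjusted p under 0.05, whereas a test on counting noise alone still called Cpt1a, Acaa2 and Mlycd lower and Acsl3 and Acsl4 higher whichever library was left out.

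**Figure D1:**
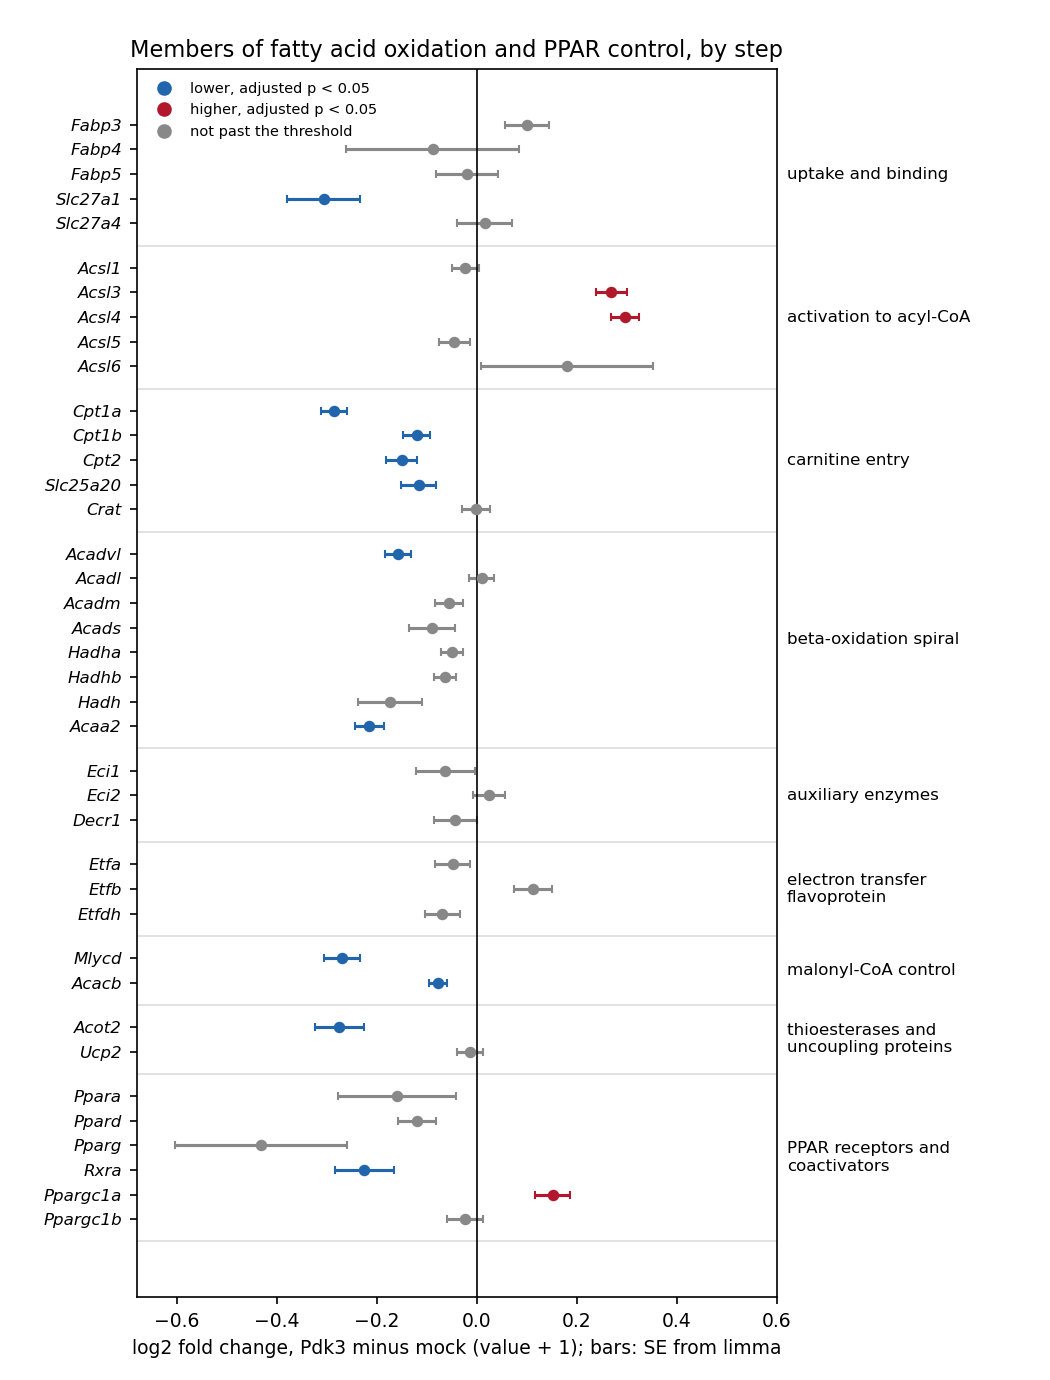
Log2 fold change of the 39 tested members (x axis, Pdk3 minus mock, on values + 1), grouped by step, with bars for the limma standard error. Blue points fell and red points rose at an adjusted p under 0.05. 4 of 5 carnitine entry genes lie to the left of 0 past the threshold and 2 of 5 acyl-CoA synthetases to the right. The auxiliary genes lie near 0, as do Etfa and Etfdh (-0.05 and -0.07), while Etfb lies at 0.11, not past the threshold.

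PPAR and RXR pairs bind DNA at repeats of the hexamer AGGTCA, so the 250 bases before the gene start were read for the members that fell. RefSeq promoters (build GRCr8, a later assembly than the rn6 of the expression table) were at hand for 36 of the 43 members, with no entry for Fabp4, Fabp5, Cpt1b, Acadl, Acaa2, Decr1 and Ppard. AGGTCA, searched on both strands and therefore also as TGACCT, was before the start of 6 of these 36 members (16.7%, counted per gene). That is close to its share of 14.1% among all 33469 promoters of that length, counted per promoter. Among the 6 were Eci1, which did not pass, Ucp3, too low to test, and Echs1, not analysed here. Of the members that fell, 9 had an entry and 3 of these held the hexamer. Those 3 are printed with that of Cpt1a, which fell without a match in this window, 5′ to 3′ on the strand of the gene with the hexamer in capitals. They lie at chr10:55236706-55236955 (Acadvl, minus strand), chr16:18312717-18312966 (Slc27a1, plus strand), chr12:48138215-48138464 (Acacb, minus strand) and chr1:209995910-209996159 (Cpt1a, plus strand).
Acadvl: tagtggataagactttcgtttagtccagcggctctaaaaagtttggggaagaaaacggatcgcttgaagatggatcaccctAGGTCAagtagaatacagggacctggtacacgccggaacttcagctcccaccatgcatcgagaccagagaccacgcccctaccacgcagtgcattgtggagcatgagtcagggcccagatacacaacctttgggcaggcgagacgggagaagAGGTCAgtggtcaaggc
Slc27a1: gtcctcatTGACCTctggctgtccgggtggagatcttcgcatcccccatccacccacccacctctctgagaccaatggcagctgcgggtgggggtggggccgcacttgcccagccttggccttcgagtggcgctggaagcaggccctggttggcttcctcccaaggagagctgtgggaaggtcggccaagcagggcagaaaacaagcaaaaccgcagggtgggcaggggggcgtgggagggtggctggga
Acacb: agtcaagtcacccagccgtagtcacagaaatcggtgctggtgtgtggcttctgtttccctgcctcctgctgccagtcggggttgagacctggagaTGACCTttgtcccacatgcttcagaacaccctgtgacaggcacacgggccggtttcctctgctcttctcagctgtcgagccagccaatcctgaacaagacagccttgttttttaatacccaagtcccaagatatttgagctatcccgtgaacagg
Cpt1a: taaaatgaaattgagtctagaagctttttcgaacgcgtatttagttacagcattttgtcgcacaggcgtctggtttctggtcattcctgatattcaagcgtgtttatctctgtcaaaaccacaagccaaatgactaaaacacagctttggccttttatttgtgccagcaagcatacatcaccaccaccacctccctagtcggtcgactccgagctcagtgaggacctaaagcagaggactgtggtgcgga
Acadvl held 2 copies in the reading direction of the gene, from 169 to 164 and from 17 to 12 bases before its start. Slc27a1 and Acacb held 1 copy each on the opposite strand, from 242 to 237 and from 155 to 150 bases before the start. Only exact copies of the single hexamer were searched. Less exact copies beside them, and the spacing of a repeat, were not, so a single match here does not mean that no repeat is present. The 2 copies of Acadvl were not read as a repeat. A match describes letters only and was not read as a binding site.

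Of the 5 carnitine entry genes 4 fell (80%, beside 11.3% of all genes tested) and 0 rose (3 and 0 at the counting floor). The count was 1 with no filter on low values, with no intensity trend or at an adjusted p under 0.01. Cpt1a (ENSRNOG00000014254, chromosome 1, 218569510 to 218629678, plus strand, rn6), the liver-type carnitine palmitoyltransferase of the outer mitochondrial membrane and the gate that malonyl-CoA closes, had normalised counts of 1137, 1105, 926 and 913. Both Pdk3 libraries lay below both mock libraries, and the mean was 1.22-fold lower, -0.29 ± 0.03 as log2 fold change (SE; limma adjusted p = 0.000332, the same at the counting floor). Cpt1b (chromosome 7, 130395194 to 130405347, minus strand), the muscle-type isoform, had 1288, 1332, 1225 and 1186, again without overlap. Its mean fell by 7.98% (log2 fold change -0.12 ± 0.03; adjusted p = 0.0186, and 0.0257 at the counting floor).

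Within each library the ratio of Cpt1a to Cpt1b reads, not corrected for transcript length, was 0.883 and 0.830 in mock and 0.756 and 0.770 with Pdk3. The liver-type isoform thus made up less of the Cpt1 reads in both Pdk3 libraries, and the muscle-type isoform 57.0% and 56.5% of them against 53.1% and 54.7%. The ratios were not tested: they are given as values per library, since an exact permutation test of 2 libraries against 2 cannot give a two-sided p below 0.333.

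Cpt2 (chromosome 5, 127505614 to 127523089, minus strand), which returns the acyl group to CoA inside the mitochondrion, had 764, 789, 706 and 693, and its mean fell from 776.5 ± 17.7 to 699.5 ± 9.2 (SD, n = 2 each; limma adjusted p = 0.0120, and 0.0351 at the counting floor). Slc25a20 (chromosome 8, 117455262 to 117476734, plus strand), the carrier that exchanges acylcarnitine for carnitine across the inner membrane, had 616, 645, 580 and 583. Its groups did not overlap, but the call was at the edge (adjusted p = 0.0487, and 0.173 at the counting floor). Crat, which forms short-chain carnitine esters from acetyl-CoA, had 916, 947, 928 and 933, with overlapping groups and a log2 fold change of 0.00 (95% interval -0.06 to 0.06).

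**Figure D2:**
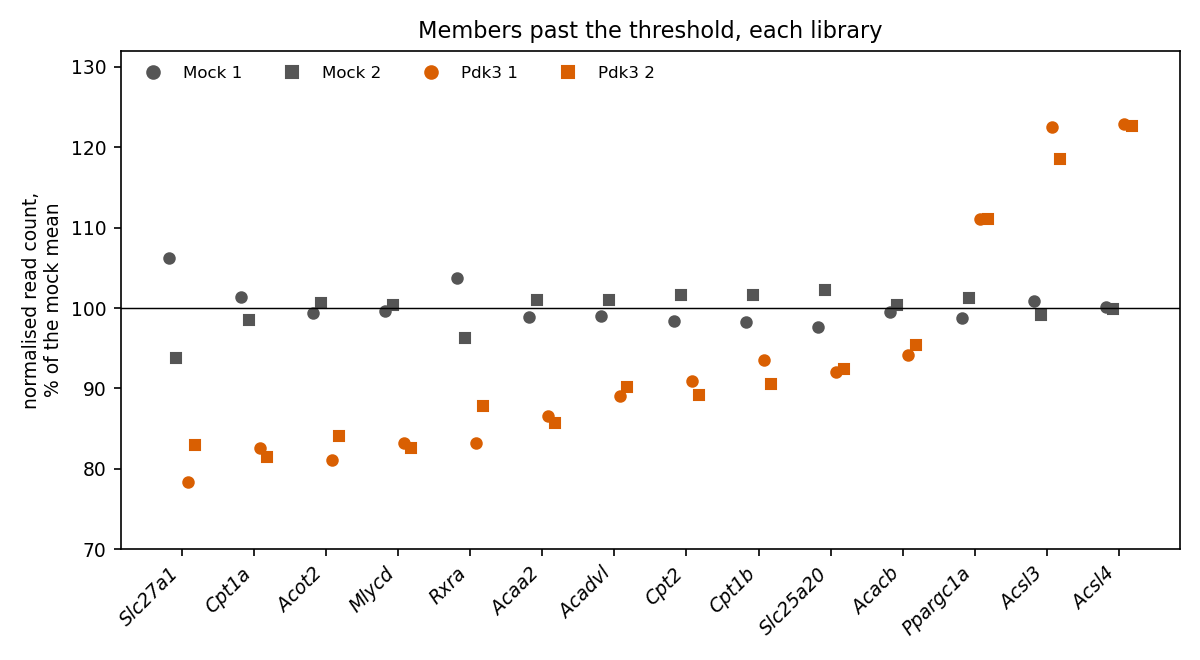
Normalised read count of each library as a percentage of the mock mean (y axis, starting at 70%) for the 14 members past the threshold, ordered by fold change along the x axis. Grey symbols are mock and orange symbols Pdk3 libraries. The Pdk3 libraries lie on 1 side of both mock libraries for every gene shown, from Slc27a1 at the low end to Acsl4 at the high end.

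In the beta-oxidation spiral 2 of 8 tested members fell and 0 rose, the same at the counting floor. At an unadjusted p under 0.05, 0 members rose. That is 25% lower and 25% in either direction, beside 11.3% and 22.9% of all genes tested. A log2 fold change below 0 was found in 7 of 8, beside 51.7% of all genes tested. Acadvl (ENSRNOG00000018114, chromosome 10, 56619303 to 56624526, minus strand), the very long-chain acyl-CoA dehydrogenase that starts the round at the inner membrane and whose promoter is printed above, had 938, 957, 844 and 854. The groups were apart and the mean fell by 10.4% (log2 fold change -0.16 ± 0.03; limma adjusted p = 0.00504, and 0.0114 at the counting floor). Acaa2 (ENSRNOG00000013766, chromosome 18, 70733872 to 70762395, plus strand), the thiolase that releases acetyl-CoA at the end of the round, had 743, 759, 650 and 644. It fell by 13.8% (log2 fold change -0.21 ± 0.03; adjusted p = 0.00223, and 0.00224 at the counting floor).

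The dehydrogenases for shorter chains differed less from mock. Acadl, the long-chain enzyme, had 915, 925, 924 and 929, a log2 fold change of 0.01 (95% interval -0.05 to 0.07), which turned to -0.08 with ribosomal protein genes held level. The Acadvl to Acadl ratio was 1.03 in both mock libraries and 0.913 and 0.919 in the Pdk3 libraries, given as values with no test. Acadm for medium chains (910, 889, 854 and 876) and Acads for short chains (576, 614, 541 and 578) had log2 fold changes of -0.06 and -0.09 and did not pass, and the groups of Acads overlapped.

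The trifunctional protein joins the hydratase, dehydrogenase and thiolase for long chains. Its alpha subunit gene Hadha had 1599, 1558, 1525 and 1526 and its beta subunit gene Hadhb 1120, 1119, 1071 and 1071. Both were lower in both Pdk3 libraries by a small amount (log2 fold changes of -0.05 and -0.06), and neither passed (limma adjusted p = 0.143 and 0.0805). Hadh, the dehydrogenase for shorter hydroxyacyl chains, had 277, 274, 231 and 258, a log2 fold change of -0.17 (95% interval -0.32 to -0.02; adjusted p = 0.0942).

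None of the 3 auxiliary enzymes, which prepare unsaturated fatty acids for the spiral, passed limma's threshold (0 past it at the counting floor, and 0 at an unadjusted p under 0.05), and all 3 had overlapping groups. Eci1 had 333, 342, 341 and 306, Eci2 741, 738, 769 and 736, and the dienoyl reductase gene Decr1 469, 474, 443 and 473, with log2 fold changes between -0.06 and 0.02. With ribosomal protein genes held level Decr1 was called lower (adjusted p = 0.0491). The electron transfer flavoprotein passes electrons from the dehydrogenases to the respiratory chain. Its subunit gene Etfa had 577, 562, 560 and 542, Etfb 439, 434, 480 and 464, and its oxidoreductase gene Etfdh 1052, 1039, 1033 and 962. Etfb was above mock in both Pdk3 libraries (log2 fold change 0.11, 95% interval 0.02 to 0.20, adjusted p = 0.0705), while Etfa and Etfdh had log2 fold changes of -0.05 and -0.07 and did not pass. Etfb was called higher under TMM scaling (0.0447), and Etfa and Etfdh lower with ribosomal protein genes held level (0.0149 and 0.000932).

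Both genes of malonyl-CoA turnover fell (1 of 2 at the counting floor), beside 11.3% of all genes tested. Mlycd (ENSRNOG00000014522, chromosome 19, 52032886 to 52048753, plus strand), the decarboxylase that removes malonyl-CoA, had 475, 479, 397 and 394 and fell by 17.1% (log2 fold change -0.27 ± 0.04; limma adjusted p = 0.00213, and 0.00224 at the counting floor). Acacb (ENSRNOG00000000658, chromosome 12, 48127149 to 48238887, minus strand), the carboxylase isoform that makes malonyl-CoA at the mitochondrial surface, had 2205, 2224, 2084 and 2112. Its groups were apart, and it fell by 5.26% (adjusted p = 0.0185, and 0.0711 at the counting floor). The Mlycd to Acacb ratio was 0.215 in both mock libraries and 0.190 and 0.187 in the Pdk3 libraries.

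Activation to acyl-CoA held 2 of the 3 members that rose, and 0 of its 5 genes fell as deposited. The share called was 40%, beside 22.9% of all genes tested. With ribosomal protein genes held level, Acsl1 and Acsl5 were called lower (limma adjusted p = 0.00398 and 0.0149). Acsl4 (ENSRNOG00000019180, chromosome X, 113596239 to 113659944, minus strand), a synthetase known for its preference for arachidonic acid, had 620, 618, 761 and 759, a rise of 22.8% (log2 fold change 0.30 ± 0.03; limma adjusted p = 0.000414, the same at the counting floor). Acsl3 (ENSRNOG00000014718, chromosome 9, 84569597 to 84593565, plus strand), a synthetase of the endoplasmic reticulum and lipid droplets, had 644, 633, 782 and 757, a rise of 20.5% (log2 fold change 0.27 ± 0.03; adjusted p = 0.00103). Acsl1, the main synthetase of heart muscle for oxidation, had 1422, 1357, 1366 and 1369, with overlapping groups and a log2 fold change of -0.02 (95% interval -0.08 to 0.04). Acsl5 (629, 635, 606 and 619) and the low Acsl6 (37, 31, 38 and 39) did not pass.

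Summed over the 5 synthetase genes, reads were 3352 and 3274 in mock and 3553 and 3543 with Pdk3. The share of Acsl1 in that sum was 42.4% and 41.4% in mock and 38.4% and 38.6% with Pdk3, and the ratio of Acsl4 to Acsl1 was 0.436 and 0.455 against 0.557 and 0.554. These ratios are of reads and not per transcript length.

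Among uptake and binding genes 1 of 5 tested members fell and 0 rose (the same at the counting floor). The share called was 20%, not far from the 22.9% of all genes tested. Slc27a1 (ENSRNOG00000018170, chromosome 16, 19999112 to 20016190, plus strand), a fatty acid transport protein of muscle and fat, had 275, 243, 203 and 215. Both Pdk3 libraries were below the lower mock library, and the mean fell by 19.3% (log2 fold change -0.31 ± 0.07; limma adjusted p = 0.0225, and 0.0274 at the counting floor). Slc27a4, another transport protein, had 431, 428, 411 and 459, a log2 fold change of 0.02 that became -0.07 with ribosomal protein genes held level.

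Fabp3, the heart-type fatty acid binding protein, had 458, 427, 477 and 471, above mock in both Pdk3 libraries but not past the threshold (log2 fold change 0.10, adjusted p = 0.146). Fabp4 (74, 96, 91 and 69) and Fabp5 (189, 195, 191 and 188), binding proteins of adipocytes, endothelium and macrophages, had overlapping groups. The interval of Fabp4 was wide, from -0.49 to 0.32 on the log2 scale.

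Of the thioesterases, which release free fatty acids from CoA, Acot2 of the mitochondrion (ENSRNOG00000010134, chromosome 6, 107460668 to 107467487, plus strand) had 306, 310, 250 and 259 and fell by 17.4% (log2 fold change -0.27 ± 0.05; limma adjusted p = 0.00718, and 0.0134 at the counting floor). Its close relative Acot1 of the cytosol had 5, 5, 2 and 3, too few to test, and how the authors' counting divided reads between such similar genes is not given in the sources used here. Ucp2, an uncoupling protein of the inner membrane, had 968, 945, 952 and 943, with overlapping groups and an interval of -0.07 to 0.05. Ucp3, the muscle form, had 3, 1, 0 and 0.

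No PPAR receptor gene passed limma's threshold or the counting floor, though Ppard and Pparg had an unadjusted p of 0.0152 and 0.0385. With ribosomal protein genes held level both were called lower (adjusted p = 0.000943 and 0.0444), and Ppard also with a minimum value of 50 (0.0336). Ppara, the receptor best known for driving fatty acid oxidation in the heart, had 116, 129, 121 and 99, with overlapping groups (log2 fold change -0.16, 95% interval -0.43 to 0.12). Ppard, the other main receptor of heart muscle, had 555, 557, 526 and 498, below mock in both Pdk3 libraries (log2 fold change -0.12, limma adjusted p = 0.0603). Pparg, the receptor of adipocytes and macrophages, had 47, 39, 31 and 32 (log2 fold change -0.43, adjusted p = 0.115). Rxra (ENSRNOG00000009446, chromosome 3, 6211789 to 6295908, plus strand), the shared partner, had 308, 286, 247 and 261 and fell by 14.5% (adjusted p = 0.0312, and 0.0604 at the counting floor).

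Ppargc1a (ENSRNOG00000004473, chromosome 14, 63095720 to 63187009, plus strand), which encodes PGC-1 alpha, had 449, 460, 505 and 505, a rise of 11.1% (limma adjusted p = 0.0205). The call ended at the counting floor (0.103) and with ribosomal protein genes held level (0.291). Ppargc1b had 635, 604, 603 and 616, with overlapping groups and an interval of -0.11 to 0.06.

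**Figure D3:**
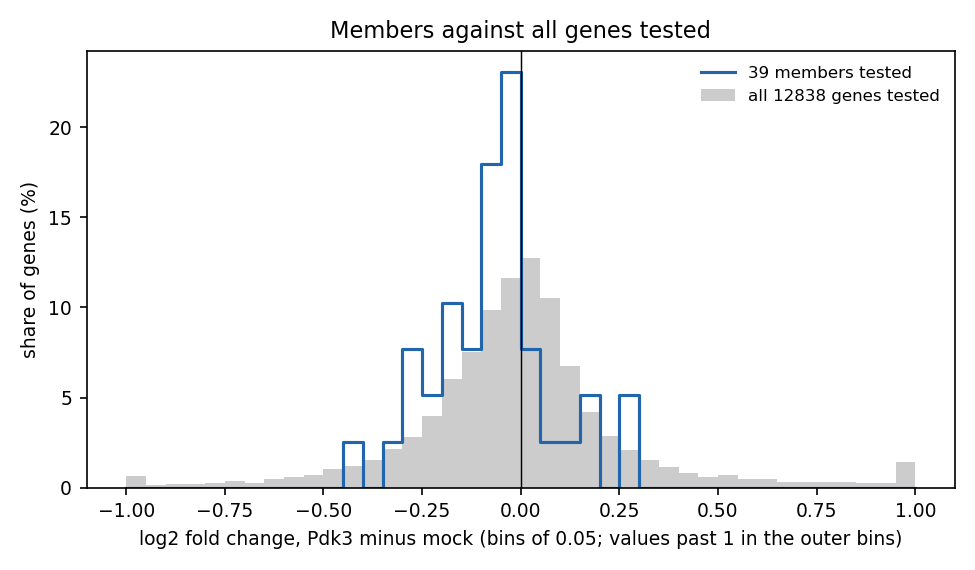
Share of genes (y axis, %) in bins of 0.05 of the log2 fold change (x axis) for all 12838 genes tested (grey bars) and the 39 members tested (blue line). The members span -0.43 to 0.30 and 30 of 39 lie below 0, beside 51.7% of all genes tested.

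Across the tested members, 20 had both Pdk3 libraries below both mock libraries, 6 had both above and 13 overlapped. Over all genes tested 31.1% had both below and 29.9% both above. The mean values of the members that fell ranged from 234 to 2156 with a median of 699, those of the 25 that did not pass from 36.3 to 1552 with a median of 560.

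Known PPAR targets outside the 43 genes include some with larger changes. Of 12 tested in a list of 15, 7 fell and 1 rose (6 and 0 at the counting floor), with a median log2 fold change of -0.27. Thus 58.3% were lower, beside 11.3% of all genes tested. Angptl4, a secreted inhibitor of lipoprotein lipase, had 164, 177, 64 and 70 (2.54-fold lower; limma adjusted p = 0.000122), and Pdk4, a pyruvate dehydrogenase kinase, had 360, 360, 257 and 246 (1.43-fold lower; adjusted p = 0.000361). For both genes the Pdk3 libraries lay far below the mock libraries. Vldlr, a lipoprotein receptor, was the member that rose (886, 883, 957 and 943; adjusted p = 0.0237, and 0.135 at the counting floor). This list was written with earlier results of these data known, among them those for Angptl4 and Pdk4. It is not independent of those results.

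Peroxisomes carry a separate fatty acid oxidation route. Of its 17 tested genes 4 fell and 1 rose (3 and 1 at the counting floor), with a median of -0.06. That is 29.4% in either direction, not far from the 22.9% of all genes tested. Acox3, an acyl-CoA oxidase of branched chains, had 464, 455, 322 and 300 and fell (log2 fold change -0.56 ± 0.05; limma adjusted p = 0.000249). The multifunctional enzyme gene Hsd17b4 and the sterol carrier gene Scp2 had log2 fold changes of -0.18 and -0.19 (adjusted p = 0.00531 and 0.00830).

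Acyl-CoA dehydrogenases and related enzymes outside the classical spiral fell in 5 of 10 cases and rose in 0 (3 and 0 at the counting floor). Thus 50% were lower, beside 11.3% of all genes tested. Acad11 (253, 253, 170 and 154) and Acad10 (412, 442, 317 and 294) had log2 fold changes of -0.64 ± 0.07 and -0.48 ± 0.06 (limma adjusted p = 0.000700 and 0.00102), and Ivd of leucine breakdown had one of -0.16 (adjusted p = 0.0145). Of 6 genes of ketone body use 0 fell and 1 rose, Bdh1 (366, 380, 436 and 403; adjusted p = 0.0482, and 0.107 at the counting floor). Slc22a5, the carnitine transporter of the cell membrane, had 183, 170, 143 and 122 and fell (log2 fold change -0.41 ± 0.10; adjusted p = 0.0193), the 1 of 4 carnitine supply genes past the threshold. Of 7 other thioesterases 2 fell, Acot7 and Acot11 (log2 fold changes -0.30 and -0.32, limma adjusted p = 0.0266 and 0.0450, and 0.0583 at the counting floor for Acot11). The shares called among ketone body, carnitine supply and other thioesterase genes were 16.7%, 25% and 28.6%. These are not far from the 22.9% of all genes tested.

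Among 24 partner receptors, coregulators and subunits of the energy sensor AMPK, 7 fell and 3 rose (5 and 1 at the counting floor), with a median of 0.00. The shares were 29.2% lower and 41.7% in either direction, beside 11.3% and 22.9% of all genes tested. Lpin1, a phosphatidate phosphatase that also coactivates PPAR alpha, fell from 484 and 497 to 393 and 404, and the coactivator gene Ncoa2 from 758 and 741 to 680 and 660 (limma adjusted p = 0.00173 and 0.00963). Pprc1, a relative of PGC-1 alpha, rose from 589 and 571 to 669 and 669 (adjusted p = 0.00377). The AMPK subunit genes Prkag2 and Prkaa1 rose by smaller amounts (log2 fold changes 0.15 and 0.14), and their calls ended at the counting floor (adjusted p = 0.0775 and 0.0786).

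The table itself carries KEGG pathway terms. Over all genes tested, 11.3% were lower and 11.7% higher (7.45% and 8.39% at the counting floor). Of the 14 tested genes of fatty acid degradation that are not among the 43, 4 fell and 0 rose, among them Acox3, Gcdh and Acadsb (1 fell and 0 rose at the counting floor). Of the 30 such genes of PPAR signalling 10 fell and 4 rose (9 and 4 at the counting floor). The 4 that rose, named here after their values were seen, were the desaturase genes Scd, Scd2 and Fads2 and the glycerol kinase gene Gk, with log2 fold changes of 1.23, 0.50, 0.80 and 0.29.

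Markers of other cells in these cultures were read beside the 22.9% called over all genes. Macrophage markers had 11 of 11 tested genes below 0 and 5 past the threshold, and their summed level was 1833 and 1725 in mock and 1500 and 1430 with Pdk3. Endothelial markers had 9 of 10 tested genes below 0 and 2 past the threshold, both lower (20% lower, beside 11.3% of all genes). Their median log2 fold change was -0.23, and their sums were 1433 and 1472 against 1371 and 1334. Fibroblast markers had 6 of 8 tested genes below 0 and 1 past the threshold, also lower, with sums of 5764 and 5679 against 5668 and 5541. Smooth muscle and pericyte markers had 3 of 7 higher (3 also at the counting floor and with ribosomal protein genes held level), with sums of 3993 and 3937 against 4427 and 4372. Cardiomyocyte markers had 6 of 12 higher and 1 lower, with sums of 24186 and 23882 against 25011 and 24617, but 0 higher and 2 lower with ribosomal protein genes held level. Of 7 adipocyte markers 4 had a row and 2 were tested, both below 0 and 1 past the threshold. Adipoq had 1, 0, 1 and 2 and Retn 0, 1, 1 and 3. Lipe, the marker past the threshold, which muscle also expresses, had 95, 95, 49 and 35. In bulk RNA, fewer cells of a type and less RNA per cell cannot be told apart. The part of such other cells in the values of the members, those past the threshold included, was not tested. Nor was it tested for the ratio of Cpt1a to Cpt1b, which is of all cells together. The same holds for Pparg, Fabp4, Fabp5 and Ucp2, which macrophages and endothelium also express.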

How the data were processed

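Stranded mRNA libraries were made from 1 µg of column-purified RNA, per the labels' protocols. Build rn6, STAR 2.6.1d, Trimmomatic 0.39, Subread's featureCounts 1.6.5, FastQC and DESeq2 1.26.0 stand in the submitters' processing notes, without settings. The authors deposited 1 table of 16290 genes whose values are used as a score, being whole-number read counts already normalised across libraries. How duplicates, strand and near-identical genes were handled is not given in the sources used here, so antisense overlaps and close paralogs are uncertain. The highest gene held 0.175% to 0.183% of its library's total. Whether duplicate handling held down high values was not tested, so sizes of change and isoform shares hold for the deposited values only. Steps in the values gave scaling factors of 1.0255, 1.0567, 0.9246 and 0.9627 (Mock 1, Mock 2, Pdk3 1, Pdk3 2), and 4139585 to 4706980 reads per library when multiplied back.

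Values were tested as log2(value + 1) with limma 3.58.1 in R 4.3.3 (trended eBayes, group as the single term, two-sided, Benjamini-Hochberg over the 12838 genes that reached 10 in 2 or more libraries). Fold changes on this scale understate low genes, and fold and percent values come from group means. The counting floor is the larger of limma's p and an exact binomial p on reads multiplied back, which covers counting error only. Alternatives were TMM scaling, ribosomal protein scaling (69 genes held level), leaving out each library, a replicate block, no filter, a minimum of 50, pseudocounts of 0.5 and 8, no intensity trend and an adjusted p under 0.01. Counting noise alone was added after seeing the data. Scripts were tested on simulated data. Members and lists were chosen with earlier results of these data known. The text names every member, up to 3 genes per direction and neighbouring list by smallest p (the 2 of highest mean where none passed), markers by cell type and Pdk3. Some genes that this rule names are not reported here. Other names were chosen after their values were seen.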

Additional observations from a re-analysis of the deposited data

How the results depend on the processing

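Counts of higher and lower genes depended on the setting more than directions did. Over all genes tested, ribosomal protein scaling gave 928 higher and 3586 lower, no filter on low values 737 and 539, no intensity trend 526 and 325, and an adjusted p under 0.01 gave 766 and 576. The counting floor gave 957 lower. With 1 library left out limma called 0 genes higher and 0 lower, with 2916 to 3347 at an unadjusted p under 0.05. Counting noise alone, without Mock 1, Mock 2, Pdk3 1 and Pdk3 2 in turn, called 777, 843, 809 and 798 higher and 642, 750, 627 and 602 lower. Among members, 26 were lower with ribosomal protein scaling, 5 without a filter, 2 lower and 1 higher without an intensity trend, and 5 lower at an adjusted p under 0.01. With 1 library left out, limma called 0 members in each direction and counting noise alone 4 to 5 lower and 2 higher.

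Cpt1a, Mlycd and Acsl4 passed at an adjusted p under 0.05 in all 9 alternative fits that kept every library. The calls of the other 11 members past the threshold ended under 1 to 5 of these fits. The stricter threshold of 0.01 is not among the 9, and it left 5 members lower and 2 higher. No call changed direction. Signs turned only for members that did not pass. Under ribosomal protein scaling Slc27a4 went to -0.0713, Acadl to -0.0774 and Eci2 to -0.0628, and under TMM scaling Crat went to 0.00909 (the median of all genes to 0.00325). With 1 library left out the log2 fold change ranged from -0.285 to 0.109 for Fabp4, -0.0411 to 0.00375 for Fabp5, -0.0634 to 0.0956 for Slc27a4, -0.0563 to 0.0111 for Acsl1, -0.0253 to 0.0226 for Crat, -0.141 to 0.0150 for Eci1, -0.00683 to 0.0564 for Eci2, -0.0897 to 0.00459 for Decr1, -0.0309 to 0.00379 for Ucp2 and -0.0591 to 0.0130 for Ppargc1b. The cause was not tested. The replicate numbers share only a number (correlation of same-numbered deviations 0.04), and a replicate block gave 3 members higher and 9 lower, without Rxra and Slc25a20, and 1374 genes higher and 1298 lower. Depth limits Pparg, Fabp4, Acsl6, Acot1 and Ucp3 most.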
